A study of Rattus norvegicus with 30 samples.

Results

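Microglia from the injured hemisphere of 12-month rats, taken 3 days after a stroke, were set against microglia from sham controls of the same age. Both groups had 3 arrays, so the comparison rested on 6 of the 30 arrays of the study, chosen by their sample titles. The study measured microglial RNA on Affymetrix Rat Gene 1.0 ST arrays in male rats of 3 or 12 months, 3 or 14 days after a 75 min occlusion of the middle cerebral artery by a filament under 1.2% isoflurane, in 10 groups of 3 arrays. The labels gave the strain in conflicting ways, as Wistar Kyoto in the sample characteristics and as spontaneously hypertensive rats in the protocols. The 12-month sham group carried no occlusion day or duration of its own in the labels, and how the microglia were isolated and which hemisphere the sham samples came from were not given in the sources used here. The sample codes tied each injured-hemisphere array to a different animal, and to the array of the opposite hemisphere of that animal. They did not tie the sham arrays to animals, so p-values measured only the spread between samples, which may be technical. That spread was taken within all 10 groups of the study and not from these 6 arrays alone, and the SEs rest on it too. All 12-month arrays shared 1 number in their codes, while the codes of the day 3 stroke arrays began with a number absent from the sham codes, whose meaning was not given.

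Microglia are the resident macrophages of the brain. In healthy tissue they carry a set of surface receptors and secreted proteins that depends on transforming growth factor beta. After ischemia they lose part of that set, divide, and take up dead cells and myelin, while monocytes and other macrophages can enter the tissue from the blood and the meninges. The study's design text asks how the activation pattern of microglia differs between days 3 and 14 and between young and older brains; the comparison described here gives the early state in the older animals.

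The values are RMA log2 expression values, so a difference of 1 is a 2-fold change of the signal, and the level of one gene cannot be set against that of another. A gene is called changed where limma, fitted over all 30 arrays, gave a Benjamini-Hochberg adjusted p under 0.05 over 11675 genes. By that rule 4328 genes (37.1%) differed between the injured hemisphere and sham, 2655 (22.7%) higher and 1673 (14.3%) lower. The counts of called genes in the lists below are to be set against these shares. Of all genes tested, 468 (4.01%) were called and at least 2-fold higher and 82 (0.702%) were called and at least 2-fold lower, so the large changes were mostly rises. On 6219 genes (53.3%) the 3 arrays of one group all lay on one side of the 3 arrays of the other, 3278 (28.1%) higher and 2941 (25.2%) lower. The first principal component of the 6 arrays held 85.8% of their variance and separated the groups, with sham between -27.6 and -25.1 and the injured hemisphere between 22.2 and 29.6. Arrays of one group correlated at 0.995 to 0.9955 in the injured hemisphere and 0.9939 to 0.9953 in sham, against 0.9544 to 0.966 between the groups.

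The spread of the values over an array was wider on the injured-hemisphere arrays (SD 2.04 to 2.05) than on the sham arrays (1.96 to 1.98). With it, the median change moved with the level of the gene, from -0.08 in the dimmest decile of genes to 0.15 in the brightest decile. After quantile normalization of all 30 arrays these medians were -0.01 and -0.03, and 4042 genes were called, 2184 higher and 1858 lower. Small changes of bright genes are therefore given with their value after that scaling where the call or the direction differed.

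**Figure D1:**
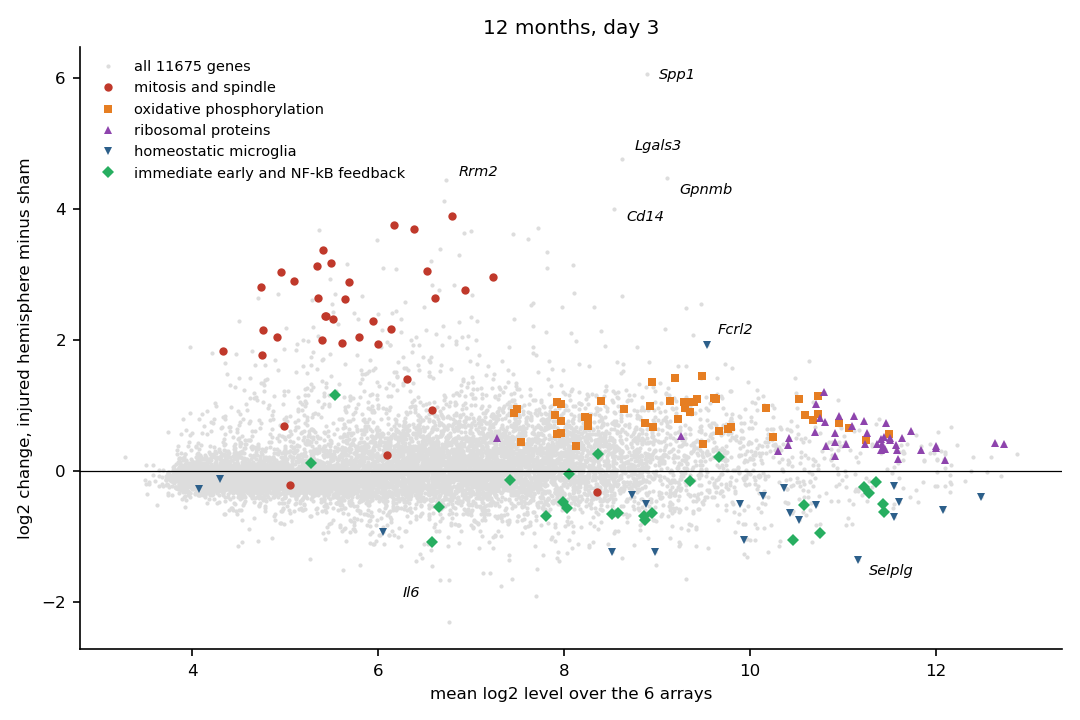
Change of each of 11675 genes (log2, injured hemisphere minus sham; vertical axis) against its mean log2 level over the 6 arrays (horizontal axis), with 5 gene lists in colour. Mitosis genes lie high at low to middle levels, the oxidative phosphorylation and ribosomal protein genes lie above 0, and most homeostatic and immediate early genes lie below 0.

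The largest single changes were rises. Spp1, which encodes osteopontin, a secreted phosphoprotein that binds integrins and CD44, read 5.90, 5.78 and 5.90 on the sham arrays and 11.91, 11.90 and 11.95 in the injured hemisphere. All 3 injured-hemisphere arrays lay far above all sham arrays, with almost no spread, and the difference was 6.06 ± 0.28 (SE, n = 3 per group; limma, adjusted p = 2e-16), or 66.6-fold. It was the largest rise of all genes tested. Lgals3, the galactose-binding lectin galectin-3, went from 6.34, 6.32 and 6.09 to 11.01, 10.93 and 11.09. Gpnmb, a transmembrane glycoprotein of endosomes and lysosomes, went from 6.94, 6.57 and 7.11 to 11.41, 11.18 and 11.47. Neither gene's groups overlapped, and the differences were 4.77 ± 0.23 and 4.48 ± 0.21 (SE; adjusted p = 4.8e-16 and 4.8e-16). Cd14, the lipopolysaccharide co-receptor of Toll-like receptor 4, followed from 6.37, 6.63 and 6.61 to 10.70, 10.30 and 10.63, a difference of 4.01 ± 0.21 (SE; adjusted p = 3.3e-15).

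Clec7a, the beta-glucan receptor dectin-1, read 5.90, 5.55 and 6.11 in sham and 9.49, 9.26 and 9.41 in the injured hemisphere, and rose by 3.54 ± 0.22 (SE; adjusted p = 1e-13). The 15 largest rises with no overlap between the groups also held Plp2 (4.12 ± 0.32), a membrane protein of the endoplasmic reticulum, the interferon-inducible membrane protein gene Ifitm1 (3.63 ± 0.41) and the calcium-binding S100a11 (3.62 ± 0.58). S100a11 had the widest spread of these, with sham arrays at 5.1, 5.43 and 6.39 and injured-hemisphere arrays at 8.89, 9.29 and 9.58. Fabp4, a fatty acid carrier of macrophages and fat cells, was dim on every sham array (3.55, 3.65 and 3.36, under the 30th percentile of each array) and read 6.98, 6.93 and 7.71 after stroke, so its rise is given as at least 3.06 on the log2 scale. The other genes of the group belong to the cell cycle (Rrm2, Top2a, Ccnb1, Stmn1 and Tpx2) or to the annexins (Anxa2) and are described with their lists.

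**Figure D2:**
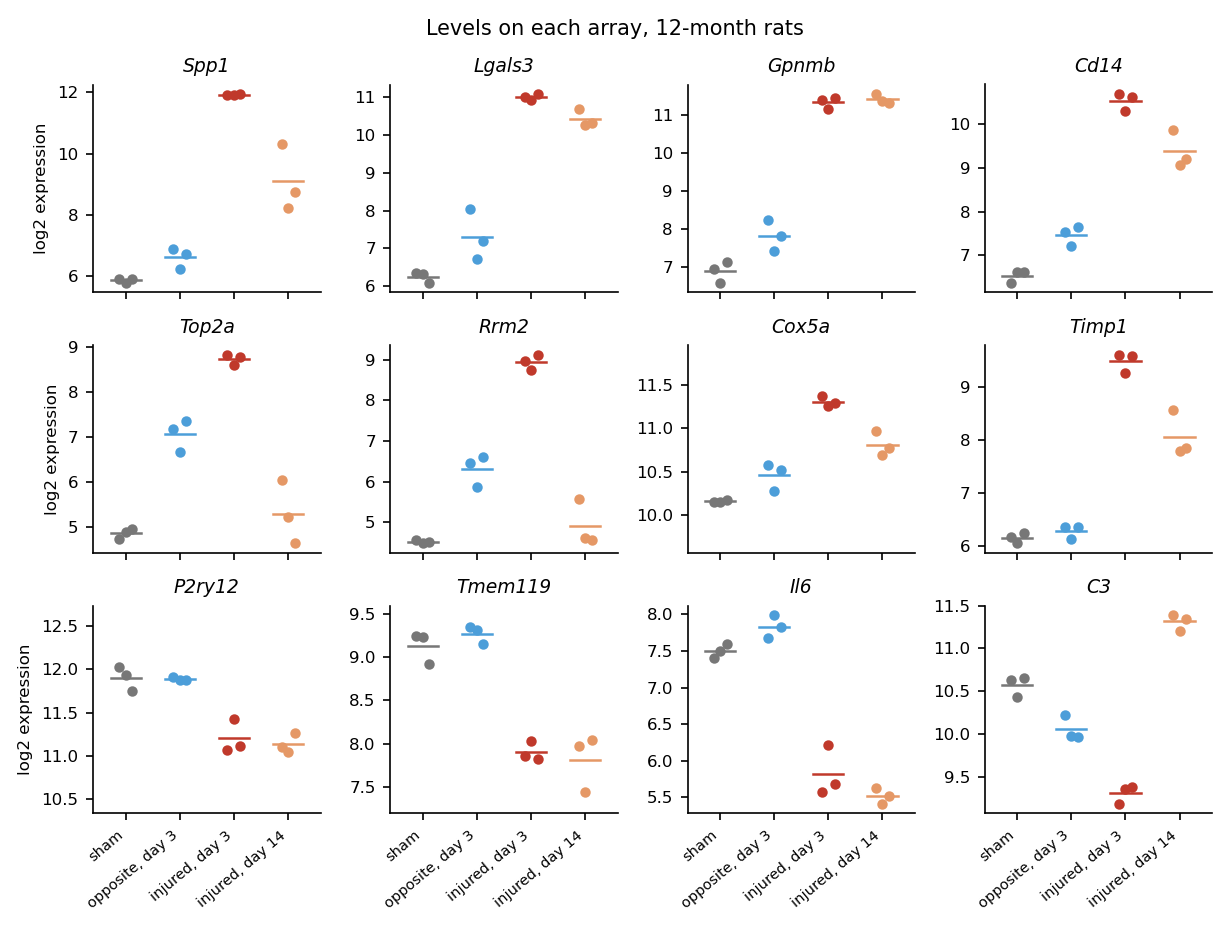
Log2 levels of 12 genes on every array of 4 groups of 12-month rats (sham, opposite hemisphere on day 3, injured hemisphere on days 3 and 14); points are arrays and lines are group means, and each panel has its own axis, spanning at least 2.4 log2 units. Spp1, Lgals3, Gpnmb, Cd14, Top2a, Rrm2, Cox5a and Timp1 were higher in the injured hemisphere on day 3 than on any sham array, and P2ry12, Tmem119, Il6 and C3 were lower than on any sham array.

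Markers were read to see which cells the RNA came from. In bulk RNA, fewer cells of a type and less RNA per cell cannot be told apart. P2ry12, Cx3cr1 and Csf1r, from the list of microglia markers, lay above the 30th percentile of every one of the 6 arrays, the limit of dim signal used here. That limit is low, and passing it does not tell microglia from other macrophages. Of the microglia markers, 6 of 9 measured fell and 1 rose, with the mean log2 level of the list at 9.88 to 10.01 in sham and 9.64 to 9.78 in the injured hemisphere. Monocyte and infiltrating macrophage markers moved up: 16 of 18 rose and 1 fell (median 1.03), and the mean level of the list was 6.2 to 6.25 in sham and 7.44 to 7.66 in the injured hemisphere. Anxa2 read 4.97, 5.28 and 5.25 in sham and 8.68, 8.86 and 8.96 after stroke (3.67 ± 0.22, SE), and Gda (3.53 ± 0.25), the intermediate filament gene Vim (2.68 ± 0.17), S100a6 (1.5 ± 0.28) and S100a4 (1.25 ± 0.17) rose. Ccr2, the receptor that defines inflammatory monocytes, read 4.92, 4.97 and 4.92 in sham and 5.04, 4.97 and 5.16 in the injured hemisphere and was not called (0.12 ± 0.22). Many genes of the list can also be made by dividing or activated microglia.

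All 9 measured markers of border-associated macrophages, the macrophages of the meninges and vessels, rose (median 1.14), with mean levels of 5.43 to 5.52 in sham and 7.06, 6.59 and 7.18 on the 3 injured-hemisphere arrays. The second of these arrays was the lowest for this list and the highest for the microglia and homeostatic lists (9.78 and 9.44). Folr2, a folate receptor, went from 6.31, 5.96 and 6.53 to 9.58, 9.17 and 9.38 (3.11 ± 0.25, SE), Siglec1 rose by 1.22 ± 0.23 and Lyve1, a hyaluronan receptor, by 1.00 ± 0.28. Of the 9 genes, 4 (Cd163, Mrc1, Clec10a and F13a1) are also in the alternative activation list, and Pf4 is in the chemokine list. The part of these macrophages, or of monocytes, in the rise of the scavenger, matrix, lipid and disease-associated genes described next was not tested.

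Neutrophil markers gave 3 calls among 17 measured (median 0.11; 1 call without injured-hemisphere array 3 or sham array 1, but 7 with the 6 arrays alone, 6 with the 12-month arrays alone or with the replicate number as a fixed block, and 5 with array weights), Fcnb (1.00 ± 0.38), Il1r2 (0.93 ± 0.23) and Cxcr2 (0.89 ± 0.28). The Fcnb call was lost without any one of the injured-hemisphere arrays 2 or 3 or of the 3 sham arrays (0.89 to 1.07). It was also lost after quantile normalization (0.88) and with the trended and robust variance (1.00). The Cxcr2 call was lost without injured-hemisphere array 1 (0.77) or 3 (0.78) or sham array 1 (0.75). S100a9 read 8.28, 7.67 and 8.04 in sham and 8.89, 9.10 and 9.20 in the injured hemisphere, with no overlap. S100a8 read 8.06, 7.27 and 7.62 and 8.34, 8.88 and 8.83. Neither was called with the spread of all groups (1.06 ± 0.52 and 1.04 ± 0.51, SE), and with the 6 arrays alone both were (adjusted p = 8.1e-05 and 0.0008). The granule gene Mpo was not called (-0.05 ± 0.11), and the mean level of the list was 5.21 to 5.40 in sham and 5.47 to 5.71 in the injured hemisphere. Of T and NK cell markers Cd8a rose (1.04 ± 0.17) and Cd4, which rat microglia and macrophages also carry, fell (-0.62 ± 0.13) among 12; Cd3e and Cd3d were not called (-0.11 and 0.23). Dendritic cell markers had 1 of 10 higher, Clec10a, which is also counted among the border-associated macrophage markers, and 3 lower. The remaining lists, against 37.1% called of all genes, had these calls in either direction: B cells 1 of 3, mast cells 0 of 3, erythroid cells and platelets 1 of 6, astrocytes 1 of 9, oligodendrocytes 2 of 8, oligodendrocyte precursors 1 of 5, neurons 0 of 8, endothelial cells 3 of 8, pericytes and smooth muscle 2 of 10 and ependyma with choroid plexus 1 of 6. Endothelial cells and B cells were thus near the share of all genes. The 1 call of the erythroid and platelet list was Pf4, which is also counted among the border-associated macrophage markers. Astrocyte markers had no call without any one of the injured-hemisphere arrays 1 or 2 or sham arrays 1 or 3. They also had none after centring the arrays on their medians or with the trended and robust variance. In contrast, 4 of 9 were lower with the 6 arrays alone, with the 12-month arrays alone or with the replicate number as a fixed block. The median changes of these lists lay between -0.18 and 0.09. Gfap, the intermediate filament of astrocytes that rises in gliosis, was not called (0.15 ± 0.11).

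**Figure D3:**
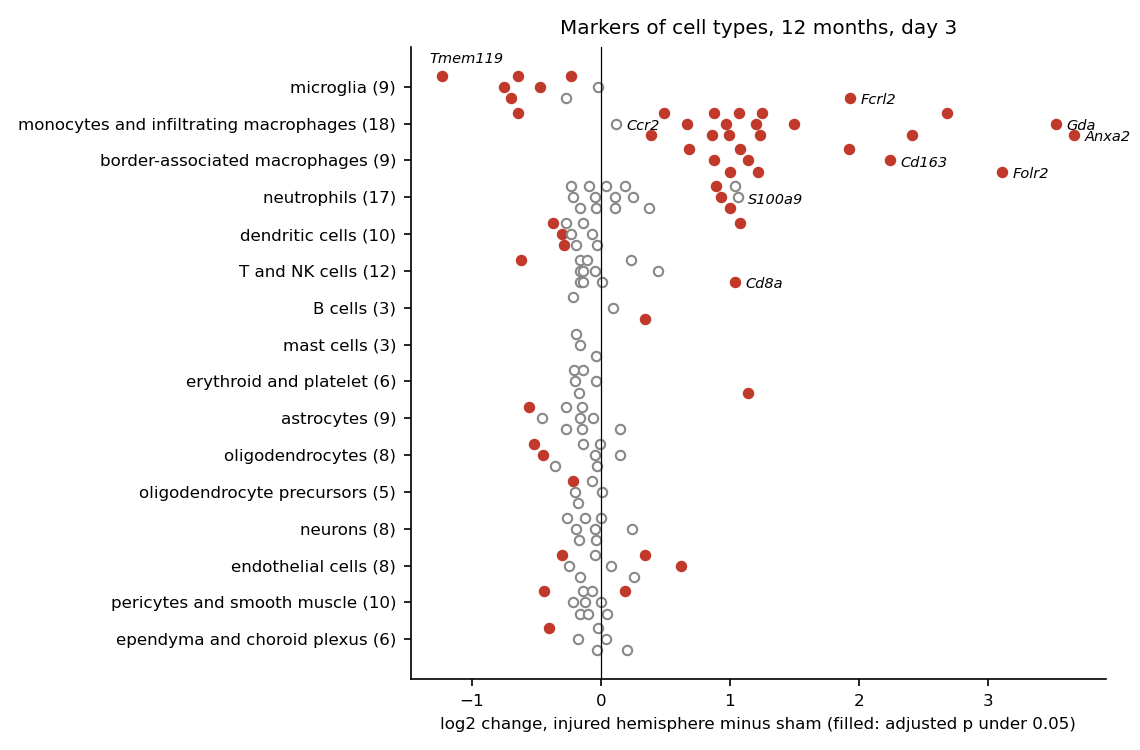
Log2 change (injured hemisphere minus sham; horizontal axis) of the measured markers of 16 cell types, with the number measured in brackets; each point is 1 gene, filled where called, and the vertical offset within a row has no meaning. Markers of monocytes and of border macrophages lie to the right, those of microglia mostly to the left, and those of the other brain cells near 0.

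Of 27 measured genes of the disease-associated microglia list, which in rodents marks microglia near plaques, myelin debris and dying cells, 17 rose and 2 fell, with a median change of 0.72 against -0.03 over all genes tested. Beside the genes above, Lpl, which releases fatty acids from lipoproteins, was dim on the sham arrays and rose by at least 1.88 (5.96, 6.09 and 6.04 in the injured hemisphere). The inhibitory receptor gene Lilrb4 rose by 2.4 ± 0.44, the growth factor gene Igf1 by 2.11 ± 0.13, the fatty acid carrier gene Fabp5 by 1.66 ± 0.17, the phagocytic receptor gene Axl by 1.45 ± 0.18 and the lysosomal marker gene Cd68 by 1.36 ± 0.12 (SE). The list did not move as a block. Apoe, the main apolipoprotein of the brain, read 12.38, 12.40 and 12.34 in sham and 12.35, 12.34 and 12.44 in the injured hemisphere, a difference of 0.00 ± 0.09 with overlapping groups. Tyrobp, the adaptor that carries the signal of Trem2, differed by -0.03 ± 0.07 and Cst7, a cathepsin inhibitor, by 0.04 ± 0.30; neither was called, and after quantile normalization Tyrobp was called lower (-0.28). Trem2 itself, the lipid-sensing receptor of the list, fell by 0.60 ± 0.08 (SE; adjusted p = 2.9e-07), and Timp2 fell by 0.31 ± 0.08. After quantile normalization 16 genes of the list were called higher and 5 lower, with a median of 0.51.

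Receptors and bridging proteins for the uptake of dead cells split in both directions, with 6 of 15 measured higher and 3 lower and a median of 0.14. Of all genes 22.7% were called higher and 14.3% lower. The Fc receptor gene Fcgr3a went from 8.93, 9.0 and 8.94 to 10.09, 10.06 and 10.12 (1.13 ± 0.13, SE), and Olr1, a receptor for oxidised lipoproteins, rose by 1.09 ± 0.15. Mertk, the receptor tyrosine kinase that clears apoptotic cells in the resting brain, went the other way, from 10.27, 10.31 and 10.19 to 9.44, 9.54 and 9.49, with no overlap. Mertk thus fell by 0.77 ± 0.09 while Axl of the same receptor family rose, and Tyro3, the third receptor of the family, differed by -0.04 ± 0.12 and was not called. Of their bridging ligands, Pros1 fell (-0.26 ± 0.10) and Gas6 was not called (0.16 ± 0.09). The Pros1 call was lost without injured-hemisphere array 1 or 2 or sham array 1 or 2, and after centring the arrays on their medians (-0.21). Mfge8, which links dying cells to integrins, fell by 0.80 ± 0.13.

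Among 22 measured genes of lipid carriage, storage and efflux, 9 rose and 1 fell, with a median of 0.19. Beside Fabp4, Lpl and Fabp5, the lipid droplet coat gene Plin2 went from 7.95, 7.92 and 8.11 to 10.12, 10.08 and 10.31 (2.17 ± 0.14, SE). The apolipoprotein gene Apoc1 rose by 2.5 ± 0.37, the cholesterol exporter gene Abca1 by 1.33 ± 0.08 and Soat1, which esterifies cholesterol for storage, by 1.24 ± 0.11. The partner exporter Abcg1 differed by 0.08 ± 0.09 and the sterol-sensing receptor Nr1h3 by 0.21 ± 0.12, and neither was called, though Nr1h3 was called higher without injured-hemisphere array 2 (0.35). Mylip, which marks the low-density lipoprotein receptor for breakdown, fell by 0.65 ± 0.09. Of 36 measured lysosomal genes 17 rose and 6 fell (median 0.17), among them Ctsb (0.55 ± 0.08), Atp6v1a of the proton pump (1.35 ± 0.23) and Gla, an alpha-galactosidase, which fell by 0.76 ± 0.09. This direction did not hold under quantile normalization, where 12 rose and 12 fell with a median of 0.01. After that scaling Lamp1, not called before it, was called lower (-0.36), and the call of Ctsd as higher was lost (0.13).

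Among the lists of 5 or more genes, the mitosis and spindle list had the largest median change. In that list, 32 of 35 measured genes rose and 1 fell, with a median change of 2.37. The other 5 of the 40 listed genes had no probe set with 1 gene name. Top2a, the topoisomerase that untangles replicated DNA, read 4.73, 4.88 and 4.95 in sham and 8.84, 8.6 and 8.79 in the injured hemisphere. Ccnb1, the cyclin of entry into mitosis, read 4.37, 4.14 and 4.36 and 8.16, 7.89 and 8.11, and its kinase gene Cdk1 read 3.84, 3.86 and 4.04 and 7.14, 6.89 and 7.25. The groups were apart by several log2 units for all of these, with changes of 3.89 ± 0.20, 3.76 ± 0.20 and 3.18 ± 0.16 (SE; adjusted p = 1.2e-15, 3.2e-15 and 1.1e-15). Because Cdk1 was dim on the sham arrays, its change is also given as at least 2.94. The spindle factor gene Tpx2 rose by 3.70 ± 0.14, the checkpoint kinase gene Bub1 by at least 2.94 and the kinesin gene Kif4a by at least 2.33, both dim in sham; 11 of the 35 genes were dim on all 3 sham arrays, and none was dim on all 3 injured-hemisphere arrays. Ttk (0.24) and Cks2 (-0.21) were not called, and Aurka fell by 0.32 ± 0.11 (SE). The Aurka call was lost without injured-hemisphere array 1 or 3 or sham array 3, and after centring the arrays on their medians (-0.27).

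In the DNA replication and S phase list 26 of 30 measured genes rose and 1 fell, with a median of 1.08. Rrm2, the regulated subunit of the reductase that makes deoxyribonucleotides, read 4.56, 4.48 and 4.51 in sham and 8.98, 8.74 and 9.13 in the injured hemisphere, and rose by 4.44 ± 0.19 (SE; adjusted p = 5e-17), or 21.7-fold. Gins1, a part of the replicative helicase, went from 4.57, 4.52 and 4.40 to 7.76, 7.40 and 7.65. The helicase subunits Mcm6, Mcm5 and Mcm2 rose by 1.99 ± 0.14, 1.78 ± 0.15 and 1.34 ± 0.15, and the cyclin gene Ccne1 of the start of S phase by 1.87 ± 0.13 (SE). Pcna, the sliding clamp of DNA polymerase, was the exception, with 10.79, 10.78 and 10.89 in sham and 10.44, 10.42 and 10.43 after stroke, a difference of -0.39 ± 0.10 (SE; adjusted p = 0.0022). Of 12 measured cell cycle inhibitors and p53 targets 2 rose and 4 fell (2 fell without injured-hemisphere array 2, sham array 1 or sham array 3). Cdkn2c, an inhibitor of the kinases of early G1, went from 5.64, 5.88 and 6.06 to 7.86, 7.71 and 7.86 (1.94 ± 0.13, SE), and Ccng1 rose by 0.60 ± 0.13, while Cdkn1b was not called (0.05 ± 0.11). The falls included Cdkn1a (-0.45), a call lost without injured-hemisphere array 2 (-0.37) or sham array 1 (-0.35). They also included Cdkn1c, a call lost without sham array 3 (-0.31).

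Since the cell cycle genes moved together, their promoter windows from RefSeq (GRCr8, 250 bases before to 50 bases after the annotated start) were searched for short motifs on both strands. The windows of 28 of the 35 mitosis genes and 26 of the 30 S phase genes were in the table. For these genes the first window listed was used, while the shares of all windows count every window. The cell cycle homology region, TTTGAA, was in 19 of the 28 mitosis windows (67.9%), in 1 of the 26 S phase windows (3.85%) and in 18.3% of all 33469 windows. The CCAAT box, CCAAT, was in 20 mitosis windows (71.4%), 17 S phase windows (65.4%) and 37.5% of all; both motifs together were in 15 mitosis windows (53.6%), no S phase window and 7.41% of all. The E2F site searched, TTTCGCGC, was in 8 of the 26 S phase windows (30.8%), 1 mitosis window (3.57%) and 0.326% of all. These are matches of letters and were not tested as sites. Both kinds of window are shown for a pair of genes each, to let the matches be seen in place: for Cdk1 (chr20:19265043-19265342, plus strand) and Top2a (chr10:84473044-84473343, minus strand) capitals mark TTTGAA and CCAAT on either strand, which do not overlap, and for Mcm2 (chr4:122918045-122918344, minus strand) and Mcm5 (chr19:13488563-13488862, plus strand) capitals mark TTTCGCGC on either strand, in Mcm2 as 1 palindromic stretch of 2 overlapping matches. Matches to the other pair's motifs are left in lower case; Cdk1 is the 1 mitosis window with TTTCGCGC, and Mcm2 the 1 S phase window with TTTGAA.
Cdk1: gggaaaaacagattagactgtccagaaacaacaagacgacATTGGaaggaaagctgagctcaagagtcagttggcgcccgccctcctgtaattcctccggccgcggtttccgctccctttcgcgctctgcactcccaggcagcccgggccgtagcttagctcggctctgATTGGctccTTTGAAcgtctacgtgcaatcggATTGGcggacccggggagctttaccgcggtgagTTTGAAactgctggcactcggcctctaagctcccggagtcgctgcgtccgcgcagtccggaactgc
Top2a: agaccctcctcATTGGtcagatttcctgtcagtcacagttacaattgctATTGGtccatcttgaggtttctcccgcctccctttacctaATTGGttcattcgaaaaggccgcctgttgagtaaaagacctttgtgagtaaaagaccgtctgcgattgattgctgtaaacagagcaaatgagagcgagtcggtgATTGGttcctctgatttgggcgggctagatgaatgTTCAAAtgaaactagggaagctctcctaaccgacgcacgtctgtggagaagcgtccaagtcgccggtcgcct
Mcm2: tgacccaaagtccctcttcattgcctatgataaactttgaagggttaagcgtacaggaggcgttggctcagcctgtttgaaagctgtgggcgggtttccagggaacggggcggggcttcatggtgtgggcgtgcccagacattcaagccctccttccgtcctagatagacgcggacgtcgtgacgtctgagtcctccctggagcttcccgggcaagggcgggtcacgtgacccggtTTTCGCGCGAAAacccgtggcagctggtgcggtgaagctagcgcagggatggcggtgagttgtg
Mcm5: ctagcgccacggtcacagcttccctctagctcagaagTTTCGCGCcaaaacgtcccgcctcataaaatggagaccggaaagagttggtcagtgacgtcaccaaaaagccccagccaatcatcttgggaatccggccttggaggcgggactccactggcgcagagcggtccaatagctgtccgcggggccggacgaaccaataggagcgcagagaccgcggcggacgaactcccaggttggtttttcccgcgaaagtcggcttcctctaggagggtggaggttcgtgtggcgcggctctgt

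Cell cycle genes had also risen in the opposite hemisphere of the same animals, less far, and few were called on day 14. Against the same sham arrays, 26 of 35 mitosis genes rose in the opposite hemisphere (median 0.81), where 1.16% of all genes rose. In the injured hemisphere on day 14, 3 rose and 1 fell (median 0.16), against 11.9% and 8.09% of all genes. Top2a read 7.19, 6.66 and 7.36 in the opposite hemisphere and 6.04, 5.21 and 4.63 in the injured hemisphere on day 14. Its injured-hemisphere level on day 3 was above every one of these arrays. The direct difference between the hemispheres on day 3 was 1.67 ± 0.20 for Top2a, 2.64 ± 0.19 for Rrm2 and 2.76 ± 0.20 for Ccnb1 (SE; adjusted p = 1.3e-07, 7.4e-12 and 1.1e-11), and 32 of the 35 mitosis genes and 24 of the 30 S phase genes were higher in the injured hemisphere (18.7% of all genes). From day 3 to day 14, 33 mitosis genes and 26 S phase genes fell (14.1% of all genes); Rrm2 changed by -4.04 ± 0.19 and Ccnb1 by -3.48 ± 0.20 (SE; adjusted p = 6.5e-16 and 3.6e-14).

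**Figure D4:**
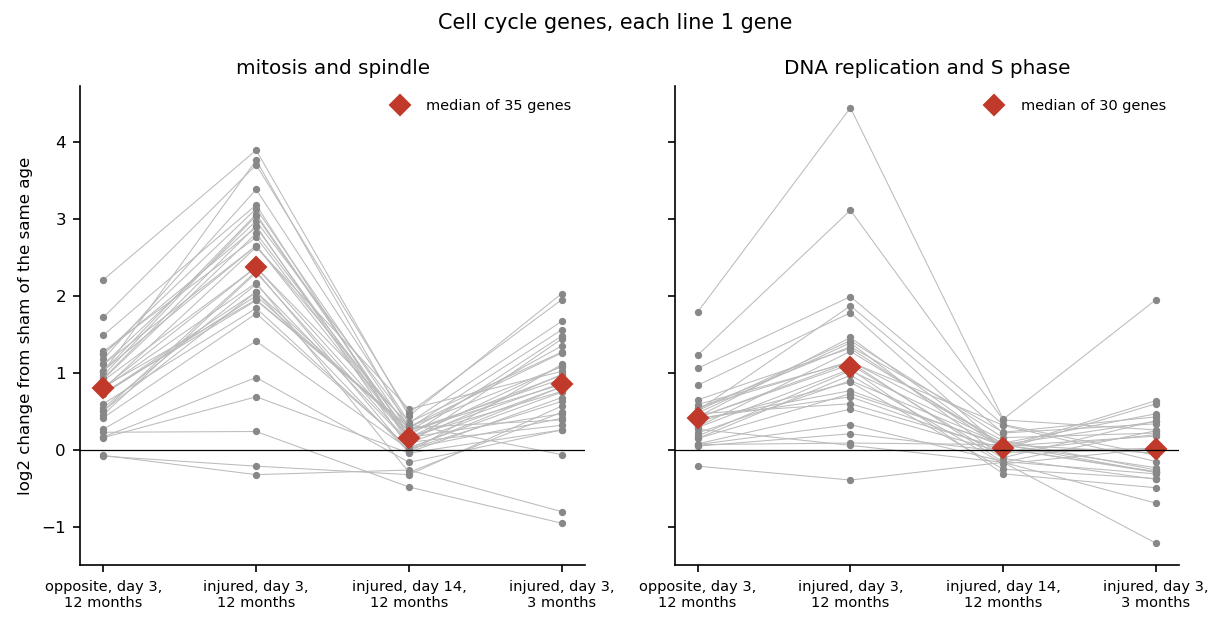
Log2 change from sham of the same age (vertical axis) of 35 mitosis genes (left) and 30 S phase genes (right) in 4 groups; each line is 1 gene and diamonds are medians. The 3 comparisons at 12 months share their sham arrays. The medians were 0.81, 2.37, 0.16 and 0.85 for mitosis and 0.42, 1.08, 0.03 and 0.01 for S phase, in the order of the axis.

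Oxidative phosphorylation, proteasome and ribosomal protein genes rose in nearly every measured gene. All 46 measured subunits of oxidative phosphorylation were called higher (median 0.87), and for all 46 the groups did not overlap (28.1% of all genes lay higher without overlap). Cox5a, a subunit of cytochrome c oxidase, read 10.15, 10.15 and 10.17 in sham and 11.37, 11.26 and 11.29 in the injured hemisphere (1.15 ± 0.10, SE; adjusted p = 4.1e-10). Cox7b rose by 1.45 ± 0.11, the ATP synthase subunit gene Atp5po by 1.43 ± 0.11, Ndufa2 of complex I by 1.36 ± 0.10 and Sdhb of complex II by 0.96 ± 0.09; the smallest change of the list was 0.38 ± 0.09, in Atp5f1c. The count stayed at 46 after quantile normalization, with a median of 0.70, and when any one of the 6 arrays was left out. In the opposite hemisphere 3 of the 46 were called higher (median 0.24; 1.16% of all genes).

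All 30 measured proteasome subunits rose too (median 0.66). Psma1 of the core ring went from 8.96, 9.07 and 9.11 to 10.14, 10.01 and 10.11 (1.04 ± 0.12, SE), and Psmd14, the deubiquitinase of the lid, rose by 0.82 ± 0.14. After quantile normalization 27 of the 30 were called higher. Of 42 ribosomal proteins 40 rose and none fell (median 0.46), led by Rpsa (1.21 ± 0.14) and Rpl10a (1.03 ± 0.09); quantile normalization left 29 called higher and a median of 0.28, and probe sets of these genes may also read near-identical pseudogenes. Glycolysis was split by enzyme: 11 of 22 genes rose and 2 fell. Pgk1 read 7.99, 7.95 and 7.99 in sham and 9.20, 9.08 and 9.30 after stroke (1.21 ± 0.09, SE), and Eno1, Ldha, Hk3 and the regulatory enzyme gene Pfkfb3 rose by 1.18 ± 0.11, 0.98 ± 0.13, 1.27 ± 0.14 and 1.27 ± 0.23. Hk2, the inducible hexokinase, fell by 0.57 ± 0.12, and the lactate carrier gene Slc16a1 fell by 0.51 ± 0.11.

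Genes of the homeostatic state moved down together. Of 21 measured, 17 fell and 1 rose, with a median of -0.50, and 19 lay lower on all injured-hemisphere arrays than on any sham array (25.2% of all genes). P2ry12, the receptor that guides microglial processes to released nucleotides, read 12.03, 11.93 and 11.75 in sham and 11.07, 11.43 and 11.12 in the injured hemisphere, a difference of -0.70 ± 0.11 (SE; adjusted p = 4.6e-06). Tmem119, a membrane protein used to tell microglia from other macrophages, read 9.25, 9.23 and 8.92 and 7.86, 8.03 and 7.82 and fell by 1.23 ± 0.18 (SE; adjusted p = 1.7e-06). For both genes the second array of the injured hemisphere kept the highest level of the 3. Sall1, a transcription factor of microglial identity, changed by -0.75 ± 0.09, the P2ry12-related receptor gene P2ry13 by -1.05 ± 0.14, the selectin ligand gene Selplg by -1.36 ± 0.14 and the leukotriene synthase gene Ltc4s by -1.23 ± 0.12. The changes of the fractalkine receptor gene Cx3cr1 (-0.47 ± 0.08) and of the growth factor receptor gene Csf1r (-0.23 ± 0.08) were smaller. The Csf1r call was lost without sham array 1 (-0.19) or 2 (-0.20) and after centring the arrays on their medians (-0.18). The one gene that rose was Fcrl2, matched to the listed Fcrls, from 8.46, 8.57 and 8.72 to 10.56, 10.49 and 10.49 (1.93 ± 0.13, SE; adjusted p = 1.5e-12).

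Signalling from transforming growth factor beta, on which this state depends, had 6 of 12 measured genes lower and 1 higher. Smad7, a feedback inhibitor and target of the pathway, went from 8.80, 8.63 and 8.54 to 7.28, 7.61 and 7.32 (-1.25 ± 0.14, SE), and the receptor gene Tgfbr1 fell by 0.52 ± 0.08. The ligand gene Tgfb1 was not called (0.15 ± 0.11). Channels and receptors of microglia split evenly, with 8 of 20 higher and 7 lower, against 22.7% and 14.3% of all genes. The chloride channel gene Clic4 rose by 2.84 ± 0.23, the calcium-activated potassium channel gene Kcnn4 by 1.53 ± 0.15, the prostaglandin receptor gene Ptger4 by 1.04 ± 0.12 and the ATP-gated P2rx4 by 0.79 ± 0.11, while its relative P2rx7 fell from 9.88, 9.81 and 9.86 to 8.95, 9.14 and 8.89 (-0.86 ± 0.10, SE).

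The 10 largest falls were those of 1700001K19Rikl (-2.30), Slc43a3 (-1.91), Chad (-1.76), Idi1 (-1.67), Il6 (-1.67), Ptgs1 (-1.65), Dpp6 (-1.64), Hrh2 (-1.55), Ankrd55 (-1.55) and Rgs11 (-1.51). Slc43a3 carries purine bases into the cell, Chad is a matrix protein, Hrh2 is a histamine receptor, and Rgs11 shortens the signal of G proteins. Slc43a3 read 8.64, 8.70 and 8.63 in sham and 6.58, 7.12 and 6.54 in the injured hemisphere. In the opposite hemisphere it read 8.47, 8.68 and 8.55, above all injured-hemisphere arrays, and the direct difference between the hemispheres was -1.82 ± 0.18 (SE; adjusted p = 2.9e-09).

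Immediate early and NF-kB feedback genes, which respond within minutes to stimuli, were lower after stroke: 17 of 25 fell and 1 rose (median -0.51). Fos read 11.01, 10.87 and 11.08 in sham and 9.66, 10.05 and 10.11 in the injured hemisphere (-1.05 ± 0.14, SE; adjusted p = 7.1e-07). Egr1 changed by -0.94 ± 0.13 and Nr4a3 by -1.08 ± 0.15, while the phosphatase gene Dusp2 rose by 1.17 ± 0.23. Nfkbia, the inhibitor that NF-kB induces to stop itself, was not called (-0.17 ± 0.09), but was called lower after quantile normalization (-0.42). Part of the heat shock and unfolded protein response moved the same way, with 10 of 26 genes lower and 3 higher (median -0.11). The chaperone genes Dnajb1 (-1.31 ± 0.15), Hsph1 (-0.82 ± 0.10) and Hspb1 (-0.72 ± 0.11) and the stress transcription factor gene Ddit3 (-1.15 ± 0.11) fell. Hspa5 and Hsp90b1 were not called, but were called lower after quantile normalization (-0.37 and -0.28), and Hspa5 also with array weights (-0.18). Among hypoxia genes, the collagen hydroxylase gene P4ha1 changed by -1.05 ± 0.10, Ddit4 by -0.66 ± 0.13 and Ankrd37 by -0.54 ± 0.15. Of the 17 measured, 4 fell and 2 rose, against 14.3% and 22.7% of all genes. Vegfa, whose product drives vessel growth, was not called (0.05 ± 0.23).

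Sterol synthesis fell in 10 of 19 measured genes and rose in none, with a median of -0.38. Idi1, an early enzyme of the pathway, read 7.86, 7.41 and 7.51 in sham and 5.87, 6.02 and 5.87 in the injured hemisphere (-1.67 ± 0.21, SE; adjusted p = 1.8e-07). Msmo1 changed by -1.5 ± 0.19, Srebf2, the transcription factor that drives the pathway, by -1.24 ± 0.13 and its retention factor gene Insig1 by -1.17 ± 0.11. Sqle, the enzyme that commits squalene to sterols, differed by -0.34 ± 0.18 and was not called with the spread of all groups, but was called lower with the 6 arrays alone (adjusted p = 0.0048), with the 12-month arrays alone, with array weights and with the replicate number as a fixed block. In the opposite hemisphere 1 of the 19 was called lower (0.128% of all genes).

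Inflammatory genes did not move in one direction. Of 23 cytokines and prostanoid enzymes 6 rose and 7 fell (median -0.12), against 22.7% and 14.3% of all genes. Il1rn, the interleukin-1 receptor antagonist, read 4.61, 4.54 and 4.81 in sham and 7.96, 7.40 and 7.87 in the injured hemisphere (3.09 ± 0.30, SE; adjusted p = 1.2e-09). Il1b, the cytokine it blocks, rose by 0.82 ± 0.25, a call lost without the third injured-hemisphere array (0.71), and Nos2 and Ptgs2 rose by 1.07 ± 0.26 and 0.96 ± 0.24. Il6 went from 7.41, 7.50 and 7.59 to 5.58, 6.22 and 5.68 and Tnf from 11.05, 10.63 and 10.23 to 9.66, 9.89 and 9.89, with no overlap in either gene. The differences were -1.67 ± 0.19 for Il6, -0.82 ± 0.16 for Tnf and -1.04 ± 0.14 for Il1a (SE; adjusted p = 4e-08, 9.9e-05 and 3.6e-07). Among enzymes of eicosanoid synthesis, Ptgs1, the constitutive cyclooxygenase, changed by -1.65 ± 0.14 and the 5-lipoxygenase gene Alox5 by -1.33 ± 0.15.

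Of 23 chemokine ligands 9 rose and none was called lower, and the median was -0.02. Under some other settings 1 to 4 were called lower: 4 with array weights, 3 with the 6 arrays alone or after quantile normalization, 2 with the 12-month arrays alone, with the trended and robust variance, with the fixed block or without sham array 3, and 1 with the stricter filter. Cxcl1, which attracts neutrophils, read 7.28, 7.19 and 7.56 in sham and 8.94, 8.63 and 9.38 in the injured hemisphere (1.64 ± 0.35, SE). Ccl6, Ccl7 and Pf4 rose by 1.68 ± 0.31, 1.14 ± 0.19 and 1.14 ± 0.16. Ccl2, which recruits monocytes, rose by 0.45 ± 0.15, but was not called after quantile normalization (0.28), nor without injured-hemisphere array 1 (0.42) or 3 (0.36) or sham array 2 (0.39). Ccl3 (-0.15 ± 0.07) and Ccl4 (-0.22 ± 0.09), macrophage inflammatory proteins, were not called, and were called lower after quantile normalization (-0.28 and -0.37). Of 11 chemokine receptors 2 rose (1 without injured-hemisphere array 1 or 3 or sham array 1) and 3 fell, with Cxcr4, the receptor of Cxcl12, from 6.66, 6.62 and 6.96 to 8.76, 8.72 and 9.12 (2.12 ± 0.34, SE). Toll-like receptors and their adaptors had Cd14 and Irak1 higher and 5 of 16 lower, among them Tlr2 (-0.42 ± 0.10), Tlr3 (-0.56 ± 0.13), Tlr4 (-0.43 ± 0.09) and Tlr9 (-0.58 ± 0.10). The Irak1 call was lost without sham array 3 (0.26) and after quantile normalization (0.24), which left Cd14 alone higher.

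In the complement list 7 of 15 measured genes rose and 2 fell (median 0.20), but after quantile normalization 4 rose and the median was 0.00. C3, the central component, read 10.63, 10.43 and 10.66 in sham and 9.18, 9.36 and 9.38 in the injured hemisphere, a difference of -1.27 ± 0.10 (SE; adjusted p = 1.1e-11). Cfd, the protease of the alternative pathway, rose by 1.93 ± 0.24, and Cd59b, an inhibitor of the terminal complex, by 1.58 ± 0.14. C1qa, an initiator of the classical pathway, was not called (0.03 ± 0.08); after quantile normalization it was called lower (-0.22). The interferon list had 9 of 31 higher and 2 lower (median 0.24), against 22.7% and 14.3% of all genes. Gbp2 (1.19 ± 0.15), Mx1 (1.16 ± 0.21) and Zbp1 (0.64 ± 0.13) were among the rises, and the regulator gene Irf7 was not called (0.00 ± 0.14). Class I antigen processing rose in 8 of 15 genes and fell in none (median 0.36; 6 higher and 3 lower after quantile normalization), with the class I gene RT1-N3 at 1.16 ± 0.16, which may share probes with its near-identical relatives, and the immunoproteasome gene Psmb8 at 0.84 ± 0.10. Class II genes gave 1 rise, of Ifi30 (0.89 ± 0.11), and 1 fall, of Ctss (-0.47 ± 0.09), among 13 measured. Cd74, the invariant chain of class II, read 10.21, 10.08 and 10.63 in sham and 9.11, 9.33 and 9.69 in the injured hemisphere. Its groups did not overlap, and the difference of -0.93 ± 0.43 (SE) missed the threshold with the spread of all groups (adjusted p = 0.093) and passed it with the spread of these 6 arrays alone (adjusted p = 0.00058). Cd74 was also called lower after quantile normalization (-1.12), with the 12-month arrays alone, with array weights and with the replicate number as a fixed block.

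Genes of tissue remodelling included several of the larger rises. Of 22 measured matrix genes, proteases and inhibitors 11 rose and 2 fell (median 0.37); 7 were called higher without injured-hemisphere array 3 or without sham array 1. Timp1, an inhibitor of metalloproteinases, read 6.17, 6.04 and 6.23 in sham and 9.61, 9.26 and 9.59 in the injured hemisphere (3.34 ± 0.15, SE; adjusted p = 2e-16). Plau, which activates plasminogen, and its receptor gene Plaur rose by 1.90 ± 0.16 and 1.49 ± 0.18, the fibronectin gene Fn1 by 1.07 ± 0.40, and the macrophage elastase gene Mmp12, dim in sham, by at least 1.28. The Fn1 call was lost after quantile normalization (1.01), with the trended and robust variance (1.07) and without any one of the 6 arrays other than injured-hemisphere array 1 (0.86 to 1.13). Mmp9 was not called (0.25 ± 0.23), and was called higher with the 6 arrays alone (adjusted p = 0.046). Of 19 integrins and adhesion genes 8 rose and 3 fell, against 22.7% and 14.3% of all genes. Cd44, a receptor for hyaluronan and osteopontin, read 4.35, 4.84 and 4.44 and 6.98, 6.94 and 6.93 (2.41 ± 0.22, SE), and Itga4 and Itgal rose by 1.20 ± 0.15 and 1.18 ± 0.12, while the junction protein gene F11r fell by 1.44 ± 0.12.

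Genes of alternative activation rose in 8 of 16 and fell in 2 (median 0.29), but Arg1, the arginase often used as its marker, was not called (0.16 ± 0.12). The hemoglobin scavenger receptor gene Cd163 read 4.47, 4.29 and 4.59 in sham and 6.77, 6.29 and 7.01 in the injured hemisphere, and the mannose receptor gene Mrc1 read 4.94, 5.26 and 5.32 and 7.17, 6.53 and 7.57. In both genes the second injured-hemisphere array was the lowest of its group and still above all sham arrays, and the rises were 2.24 ± 0.26 and 1.92 ± 0.34 (SE; adjusted p = 3.6e-08 and 4.2e-05). Of 30 genes of iron, heme and antioxidant handling 11 rose and 2 fell, with the peroxiredoxin genes Prdx1 (1.61 ± 0.14) and Prdx6 (1.02 ± 0.14) and the metallothionein gene Mt2A (1.23 ± 0.13) among the rises. After quantile normalization 12 genes of this list rose and 5 fell. The falls numbered 4 with array weights and 1 without injured-hemisphere array 2 or sham array 2. Hmox1, the inducible heme oxygenase, was not called with the spread of all groups (-0.30 ± 0.13), but was called lower with the 6 arrays alone (adjusted p = 0.014), the 12-month arrays alone, array weights or the replicate number as a fixed block, after quantile normalization (-0.48) and without sham array 1 (-0.38); the transferrin receptor gene Tfrc fell by 0.54 ± 0.15, a call lost without sham array 1 (-0.42). Trophic factors gave 4 rises and 5 falls in 21 measured, against 22.7% and 14.3% of all genes. The rises numbered 2 without injured-hemisphere array 3 or sham array 2, and 1 after quantile normalization. Igf1 read 6.82, 7.09 and 7.14 in sham and 9.29, 9.0 and 9.09 in the injured hemisphere, while Hbegf (-0.92 ± 0.17), Pdgfb (-0.81 ± 0.13) and Pdgfc (-0.83 ± 0.12) fell.

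**Figure D5:**
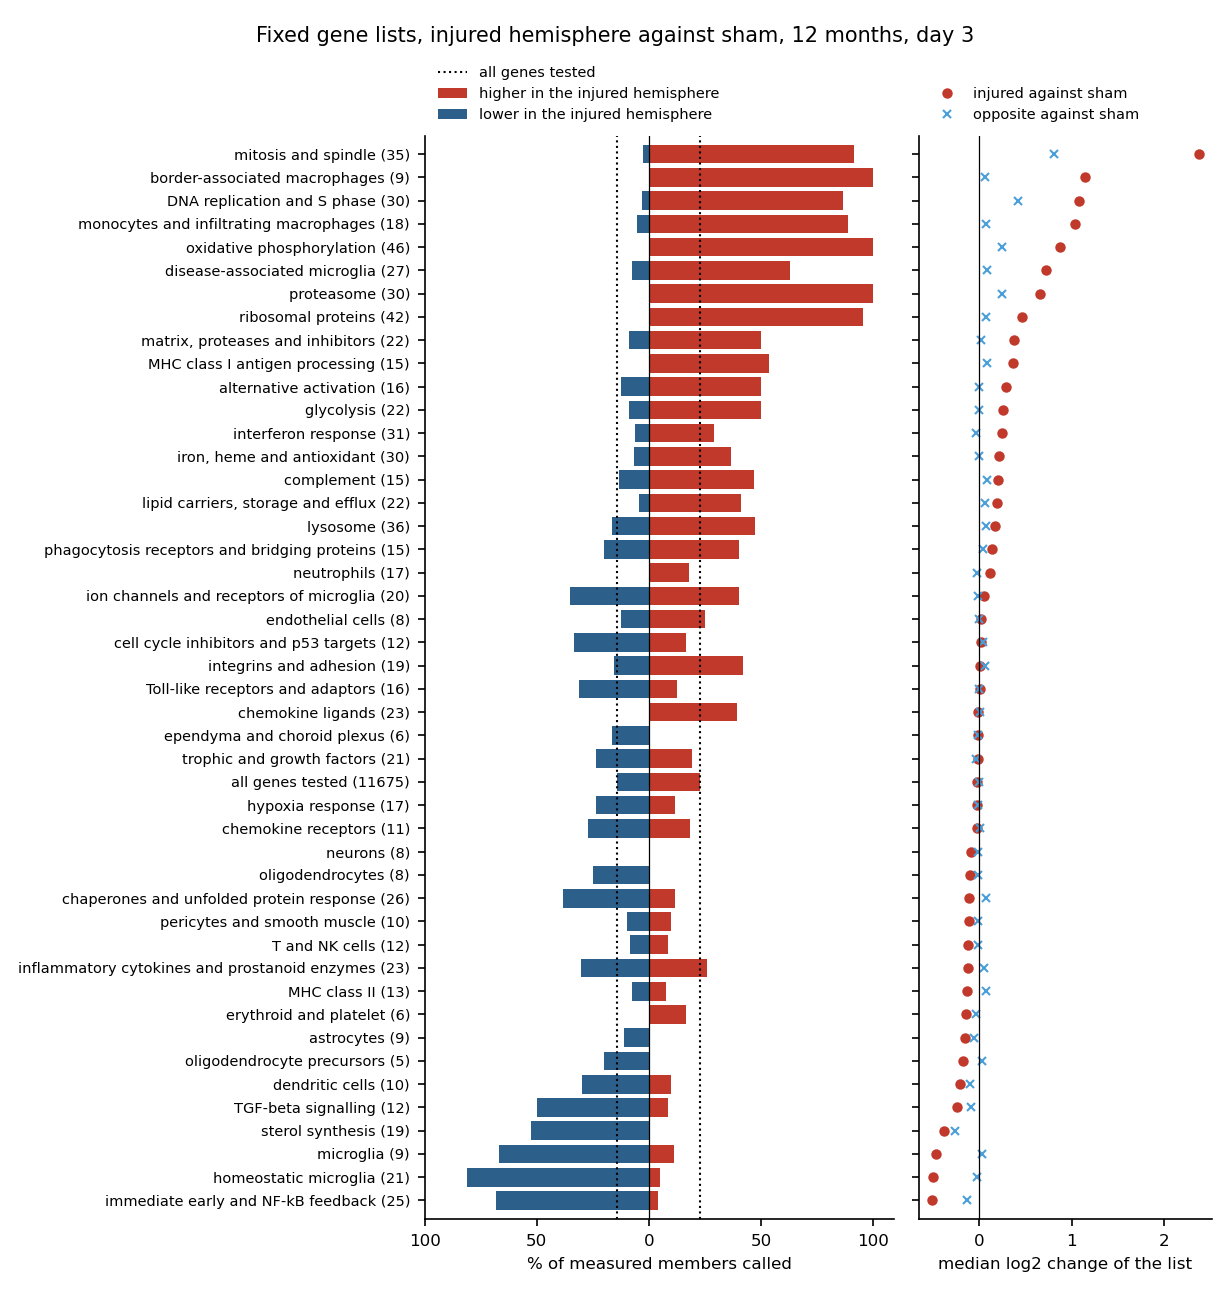
Left, the share of the measured genes of each list (number in brackets) called higher (red) or lower (blue) in the injured hemisphere than in sham, with dotted lines at the shares over all genes (22.7% and 14.3%); right, the median log2 change of each list in the injured and the opposite hemisphere against the same sham arrays. Lists of 5 or more genes are ordered by their median in the injured hemisphere, from 2.37 for mitosis to -0.51 for immediate early genes.

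Far fewer genes passed the test in the opposite hemisphere. Against the same sham arrays, 150 genes (1.28%) were called in the opposite hemisphere, 135 (1.16%) higher and 15 (0.128%) lower. That count was 72 without array 1 and 61 without array 3 of the opposite hemisphere, and 89 and 81 without sham arrays 1 and 2. Tested directly, without use of the pairing by animal, 3346 genes (28.7%) differed between the hemispheres, 2178 higher and 1168 lower in the injured one. After centring the arrays on their medians the split was 2460 to 812. With the animal as a random block 3532 genes were called. Spp1 read 6.87, 6.24 and 6.72 in the opposite hemisphere, and the difference between hemispheres was 5.31 ± 0.28 (SE; adjusted p = 1.5e-14). Lgals3 and Gpnmb were called higher than sham in the opposite hemisphere too (1.07 and 0.94), where the third of the trio, Spp1, was not (0.75). Il6 (-2.01 ± 0.19) and Hbegf (-1.65 ± 0.17) had large differences the other way; Hbegf, a ligand of the epidermal growth factor receptor, read 7.10, 7.45 and 7.89 in the opposite hemisphere against 6.96, 6.73 and 6.59 in sham, and was called higher there (0.72 ± 0.17, SE). For homeostatic genes 19 of 21 were lower in the injured than in the opposite hemisphere (10% of all genes), and none of the 21 was called in the opposite hemisphere against sham.

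By day 14 the injured hemisphere had changed in both directions from its day 3 state, with 762 genes (6.53%) higher and 1642 (14.1%) lower than on day 3. Axl read 7.34, 7.21 and 7.29 on day 3 and 10.04, 10.15 and 10.15 on day 14, a difference of 2.84 ± 0.18 (SE; adjusted p = 3.9e-13). C3 turned from below sham to above it, reading 11.39, 11.21 and 11.35 on day 14 (2.01 ± 0.10, SE, between the days). Cd74 and RT1-Da of class II, and the inhibitory receptor gene Lag3, which had fallen on day 3 (-0.91), were higher on day 14 by 2.10 ± 0.43, 2.04 ± 0.57 and 2.45 ± 0.14. Spp1 was lower on day 14 (10.32, 8.24 and 8.75; -2.82 ± 0.28, SE) and Gpnmb was not called between the days (11.57, 11.39 and 11.33; 0.08 ± 0.21, SE). Of the immediate early genes 15 of 25 were higher on day 14 than on day 3. Of 46 oxidative phosphorylation genes 38 were lower on day 14 than on day 3, and 37 were still called above sham (11.9% of all genes). Of 21 homeostatic genes 15 were below sham on day 14 (median -0.54), against 8.09% of all genes. Between the days 3 of the 21 were higher and 4 lower.

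The same change in 3-month rats was taken from other arrays, and there the stroke and the sham arrays differed in a number of the sample code, so that age and that number cannot be told apart. The spread over an array was also lower on the 3-month day 3 arrays (SD 1.84 to 1.87) than on the 3-month sham arrays (1.97 to 2.0). The difference of the changes had a median of 0.14 over all genes, 0.03 after quantile normalization and 0.26 after centring. By the test of that difference 6011 genes (51.5%) were called, 4377 (37.5%) with the more positive change at 12 months and 1634 (14%) with the more positive change at 3 months; after quantile normalization 3796 were called, 2358 and 1438. At 3 months 6626 genes (56.8%) were called against sham. Mitosis genes had a median change of 0.85 at 3 months, with 32 higher and 2 lower, against 2.37 at 12 months, and 34 of 35 were called with the more positive change at 12 months and 1 with the more positive change at 3 months. Rrm2 read 4.72, 4.54 and 4.47 in sham and 6.81, 6.54 and 6.22 in the injured hemisphere at 3 months, a change of 1.95, and its difference between the ages was 2.49 ± 0.26 (SE; adjusted p = 3.3e-08). Gins1 showed 0.26 at 3 months against 3.11 at 12 months. In the other direction, Vegfa read 5.14, 4.84 and 5.13 and 7.92, 6.82 and 6.21 at 3 months, where it rose by 1.95, against 0.05 at 12 months (-1.90 ± 0.32, SE, for the difference). Acod1, which makes the antimicrobial metabolite itaconate, rose by 2.39 at 3 months and differed by 0.78 at 12 months, not called with the spread of all groups but called with the 6 arrays alone (adjusted p = 0.0028), the 12-month arrays alone, array weights or the replicate number as a fixed block; the difference between the ages was -1.61 ± 0.58 (SE; adjusted p = 0.021).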

How the data were processed

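Total RNA of microglia was hybridised to 30 Affymetrix rat gene arrays, from 50 ng of RNA and 5 µg of cDNA with an RNA integrity number above 7.0, per the labels' protocols. The deposited values are log2 expression values made by the authors by RMA in Expression Console, per the submitters' processing notes. RMA corrects the background, normalizes between arrays and summarises each probe set, which reduces signal differences common to whole arrays. The spread of the values over an array still differed between the groups, as described above. The values ran from 2.18 to 13.68, and no arrays were identical. The genome build was not given in the sources used here.

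Probe sets were named from GEO's platform annotation, with symbols updated through RefSeq (GRCr8). Of 29214 probe sets 15310 had 1 symbol, 323 several and 13581 none; 15279 symbols were matched by gene ID, 6 by accession and 25 kept as given. The most highly expressed probe set stood for each of 14506 genes. Genes above the 30th percentile of an array on at least 3 arrays were tested, 11675 in all. A gene under that percentile on all 3 sham arrays has its rise given as at least the difference from that percentile. Models of 10 group means over all 30 arrays were fitted with limma 3.58.1 in R 4.3.3 (20 residual degrees of freedom), with Benjamini-Hochberg adjustment over all genes tested and calls at an adjusted p under 0.05. Samples were grouped by title. The procedure was tested on simulated data. Promoter windows and their motifs were read in Python 3.11.15.

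The genes named were drawn from the 15 largest rises and 10 largest falls without overlap and the 4 largest called changes of each list. The first 3 genes of each list and the 6 largest differences in each direction in each test of a difference were also used. Not all genes picked by this rule are described, and a few other list members were chosen after their values were seen. The lists and this rule were chosen with earlier results of these data known. List members could not be described where they had no named probe set or stayed under the filter. The alternatives tried were the scaling, the filter, the samples sharing the spread, the variance model, array weights, the replicate number or animal as a block, the threshold, and leaving out each array. The sample codes paired injured and opposite hemispheres by animal (correlations of deviations 0.05, 0.10 and 0.09), and sham and stroke arrays shared only a number. The main test between the hemispheres, with its SEs and p-values, did not use that pairing. The animal entered only as a block in the alternatives. Probe intensities were not analysed here, so the number of arrays limits the precision. MicroRNA sequences were not used, and probe sets without 1 gene name were tested apart from the named genes and given as counts.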

Additional observations from a re-analysis of the deposited data

Results flagged for a closer look

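The tests of a difference between groups gave the following values, each on the log2 scale. Between the hemispheres of the same animals on day 3, 3346 genes differed in limma's test, which did not use the pairing. The largest differences toward the injured hemisphere were 5.31 for Spp1, 3.80 for S100a11, 3.69 for Lgals3, 3.54 for Gpnmb, 3.53 for Fabp4 and 3.48 for Gda, a guanine deaminase. The largest the other way were -2.01 for 1700001K19Rikl, -2.01 for Il6, -1.82 for Slc43a3, -1.65 for Hbegf, -1.64 for Dpp6 and -1.59 for Kcnj15, a potassium channel.

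Between days 14 and 3 in the injured hemisphere 2404 genes differed. Axl (2.84), Rab7b (2.67), a GTPase of late endosomes, Lag3 (2.45), Cd74 (2.10), RT1-Da (2.04) and C3 (2.01) were higher on day 14. Rrm2 (-4.04), Ccnb1 (-3.48), Top2a (-3.45), Stmn1 (-3.31), Tpx2 (-3.21) and Cdk1 (-3.10) were lower, all of them genes of dividing cells. On day 14 Cd74 read 11.53, 11.26 and 11.63 and RT1-Da read 10.03, 9.53 and 9.99.

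Between the ages the change on day 3 differed for 6011 genes, with age and a number of the sample code not separable. It was more positive at 12 months for Gins1 (2.84), Rrm2 (2.49), the centromere gene Cenpk (2.43), the histone methyltransferase gene Ezh2 (2.33), Pdk4 (2.30), which shuts off pyruvate dehydrogenase, and Kif4a (2.29). It was more positive at 3 months for Prp15 (-2.69), Vegfa (-1.90), Cd74 (-1.82), Mcemp1 (-1.78), Acod1 (-1.61) and RT1-Ba (-1.54).

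Outside the named genes, 1099 probe sets with no or several gene names were called higher in the injured hemisphere than in sham and 1184 lower, of 9977 above the filter on dim signal. Of these, 174 were at least 2-fold higher and 71 at least 2-fold lower.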

How the results depend on the processing

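The count of genes called between the injured hemisphere and sham ran from 3202 at a threshold of 0.01 to 5455 with array weights, and from 3583 to 3942 when 1 array was left out; the share called higher was 61.3%, against 54% after quantile normalization and 70.8% after centring. For the opposite hemisphere the count of 150 became 460 with array weights, 230 with the replicate number as a fixed block and 73 at a threshold of 0.01, and 61 to 207 with 1 array left out. Between the hemispheres the count ran from 2551 to 3113 with 1 array left out. Between days 14 and 3 it was 1542 at a threshold of 0.01 and 1720 to 2211 with 1 array left out. Between the ages it was 3796 after quantile normalization and 5348 to 5989 with 1 array left out. The replicate block gave 4928 calls for the main comparison with the number as a fixed term and 4328 with the animal as a random term (correlation 0.072), and 3532 between the hemispheres with the animal as a block; not every array correlated best with its own number. Of 212 named genes that were called, 185 kept their call in every setting that tested them. The stricter filter on dim probe sets left some of the named genes untested. C1qa reversed, at -0.22 after quantile normalization; the cause was not tested. With 3 arrays a group, small changes of dim genes could not be resolved.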

Other observations

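Among genes outside the lists, Pdk4, the kinase that diverts pyruvate from mitochondria, read 4.87, 4.98 and 5.05 in sham, 5.14, 5.20 and 5.25 in the opposite hemisphere, 8.40, 7.90 and 8.21 in the injured hemisphere on day 3 and 9.41, 9.17 and 9.71 on day 14. All injured-hemisphere arrays were above all sham arrays on both days; the change on day 3 was 3.21 ± 0.18 (SE; limma, adjusted p = 2.2e-14), and day 14 was higher than day 3 by 1.25 ± 0.18 (SE; adjusted p = 7.4e-06). Rab7b, a GTPase of late endosomes, read 5.37, 4.98 and 5.37 in sham, 6.48, 6.28 and 6.61 on day 3 and 8.96, 9.18 and 9.24 on day 14, and rose by 1.22 ± 0.16 on day 3. Ezh2, the methyltransferase of the polycomb complex, rose by 1.62 ± 0.13 in the injured and by 1.01 ± 0.13 in the opposite hemisphere (SE; adjusted p = 4.5e-11 and 1.4e-05), against the same sham arrays. Kcnj15, an inwardly rectifying potassium channel, went from 5.68, 6.15 and 6.01 to 4.48, 4.97 and 4.34, a difference of -1.34 ± 0.21 (SE; adjusted p = 8.7e-06).

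Among markers of other brain cells, some were called. Cldn5, the tight junction protein of brain vessels, read 5.08, 4.84 and 4.78 in sham and 5.12, 5.65 and 5.78 in the injured hemisphere (0.62 ± 0.14, SE), while Cdh5, the cadherin of the same cells, fell by 0.30 ± 0.09. The myelin genes Mbp and Cnp changed by -0.52 ± 0.12 and -0.45 ± 0.11, and the astrocyte transporter gene Slc1a3 by -0.56 ± 0.21. The Slc1a3 call was lost without injured-hemisphere array 1 (-0.52) or 2 (-0.50) or sham array 1 (-0.50) or 3 (-0.44). It was also lost after centring the arrays on their medians (-0.51) and with the trended and robust variance. The Mbp call was lost with the mean of a gene's probe sets (-0.43). The B cell receptor gene Cd22, which microglia can also carry, rose by 0.34 ± 0.11 on day 3, a call lost without injured-hemisphere array 3 or sham array 2, and was higher again on day 14, by 1.38 ± 0.11 (SE; adjusted p = 8.7e-11).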
